A study of Mus musculus with 4 samples.

Results

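The genes described here are 10 genes of airway mucus and airway surface defence, namely Clca1, Muc5ac, Muc5b, Agr2, Spdef, Tff2, Bpifa1, Bpifb1, Reg3g and Pigr, out of 17780 genes in a table of mouse lung expression. They were chosen by their symbols, and the group was put together because Clca1 stood out for its higher level in the lung of a mouse given dabigatran alone. Levels in the dabigatran library against the vehicle library are therefore a description of the choice. Lung RNA was sequenced from male mice of the strain C57BL/6 in the labels and C57BL/6J in the study's methods, 6 to 7 weeks old when bought, in 4 groups with 1 library each. Oral dosing took place on 5 occasions a week over 4 weeks, and the groups were given vehicle (0.5% carboxymethylcellulose), amiodarone (300 mg per kg), dabigatran etexilate (60 mg per kg) or the combination of amiodarone and dabigatran. Amiodarone is an antiarrhythmic drug with known lung toxicity, and dabigatran inhibits thrombin. The study asked how dabigatran alters what amiodarone does to the lung. The labels state treatment for 28 days, whereas the study's methods place tissue collection on day 26.

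Mucus in the airway is a gel of secreted mucins made by goblet cells and other secretory cells, which ciliated cells move out of the lung. Goblet cells are sparse in the airways of unchallenged laboratory mice and become numerous in allergic and type 2 inflammation, where Clca1 and Muc5ac are among the best known induced genes. Airway secretory cells also release proteins that bind or kill microbes, and epithelial cells carry IgA from the tissue to the airway surface.

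Expression is given in FPKM, fragments scaled to transcript length and library size, which allows levels of different genes to be compared. The libraries held between 17498486 and 18903401 estimated reads. Each ratio is given with a 95% interval (exact Clopper-Pearson) computed from the reads of the 2 libraries. The interval covers counting error only, so it compares libraries and not treatments, and no test across animals was possible. A difference is called beyond counting error where its interval excludes 1. In whole lung, fewer cells of a type and less RNA per cell cannot be told apart.

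The group was checked against other markers of mucous cells. Of the list of 19 further genes of mucous secretory cells, 18 were in the table and 11 reached 1 FPKM in at least 1 library. The other 7, Foxa3, Ern2, Gcnt3, St6galnac1, Fut2, Tff1 and Tff3, stayed below 1 FPKM in every library. Foxa3, a transcription factor of mucous cells, had between 3 and 8 reads per library, Gcnt3, a mucin glycosylation enzyme, had 0 to 4, and the trefoil peptide gene Tff3 had 0 to 2. Muc5ac itself stayed below 1 FPKM in all 4 libraries. The highest of the list was Xbp1, a transcription factor of secretory cells in many tissues, at 84.2 to 112 FPKM. Next were the chloride channel gene Ano1, at 18.8 to 29.9 FPKM, Foxa2, at 17.9 to 27.2 FPKM, and Creb3l1, at 16.6 to 25.4 FPKM. In the vehicle library Foxa2 and Creb3l1 were above Ano1. The markers were thus mixed, and the set is described by its genes and not as a goblet cell population. The tissue carried its lung and airway markers, with Scgb1a1 of club cells between 73994 and 124168 FPKM, whereas the summed level of cartilage genes was at most 0.400 FPKM, that of basal cell genes at most 2.05 FPKM and that of submucosal gland genes at most 0.350 FPKM.

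Bpifa1, Bpifb1 and Reg3g encode abundant secreted defence proteins, and their promoters are shown as examples. All 3 genes were highest in the dabigatran library, but so were 8 of the 10 genes. Among these 8 is Agr2, whose promoter was searched and is not shown. Bpifa1 and Bpifb1, also called SPLUNC1 and LPLUNC1, belong to a family of lipid-binding airway proteins and lie 41600 bases apart on chromosome 2. The sequences are the 250 bases before the transcription start, 5′ to 3′ on the strand of the gene, from RefSeq on GRCm38.p6. Capitals mark TATAAA, the core of a TATA box. The Bpifa1 sequence is chr2:154142630-154142879 on the plus strand, the Bpifb1 sequence is chr2:154190568-154190817 on the plus strand, and the Reg3g sequence is chr6:78468875-78469124 on the minus strand.
Bpifa1: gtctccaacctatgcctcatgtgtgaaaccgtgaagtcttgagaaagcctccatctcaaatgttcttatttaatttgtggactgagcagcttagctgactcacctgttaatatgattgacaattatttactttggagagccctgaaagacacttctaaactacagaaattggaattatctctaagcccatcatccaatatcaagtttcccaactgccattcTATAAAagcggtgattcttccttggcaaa
Bpifb1: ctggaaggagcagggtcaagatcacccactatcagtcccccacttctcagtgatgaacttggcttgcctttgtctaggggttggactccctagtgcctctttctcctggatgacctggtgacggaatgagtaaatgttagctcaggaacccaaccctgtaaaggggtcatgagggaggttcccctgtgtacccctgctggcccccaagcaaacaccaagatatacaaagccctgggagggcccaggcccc
Reg3g: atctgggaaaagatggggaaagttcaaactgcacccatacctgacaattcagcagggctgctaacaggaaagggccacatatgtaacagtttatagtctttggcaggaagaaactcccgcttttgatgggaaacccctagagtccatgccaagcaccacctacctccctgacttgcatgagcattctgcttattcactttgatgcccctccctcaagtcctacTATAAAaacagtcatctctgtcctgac

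TATAAA, searched on the gene's own strand, begins 29 bases before the start in Bpifa1 and 27 bases before it in Reg3g. It was found in these 2 of the 7 promoters that the table lists for 6 of the 10 genes, and in 7.59% of all 32851 promoters of that length. A second start of Bpifb1 and the promoters of Pigr, Agr2 and Spdef held none. No promoter was listed for Clca1, Muc5ac, Muc5b and Tff2, so these searches do not cover them. The binding site of STAT6, read as TTC, any 4 bases and GAA, occurred in 0 of the 7 promoters and in 5.85% of all promoters. The forkhead site TGTTTAC, searched on both strands, also occurred in 0 of the 7 and in 3.17% of all. These are matches of letters in a short window and nothing more, and 7 promoters are too few to show a lack of a site.

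Bpifa1 (chromosome 2, positions 154142880 to 154149217 in GRCm38.p6, the build of all positions here) had the highest level of the set, with 255 FPKM in the vehicle library, 178 FPKM with amiodarone, 443 FPKM with dabigatran and 149 FPKM with amiodarone + dabigatran. Its levels therefore ran from dabigatran down through vehicle and amiodarone to the combination, and each step in this order went beyond counting error. Bpifb1, on chromosome 2 from 154190818 to 154220343, had 115, 101, 179 and 67.0 FPKM in the vehicle, amiodarone, dabigatran and combination libraries. It had the same order of libraries as Bpifa1, again with every step beyond counting error. The level of Bpifa1 over that of Bpifb1 stayed between 1.77 and 2.47 within each library. Reg3g encodes a secreted lectin that kills Gram-positive bacteria and lies on chromosome 6 from 78466269 to 78468874. It had 37.3 FPKM after vehicle, 22.8 FPKM after amiodarone, 61.2 FPKM after dabigatran and 33.4 FPKM after the combination. Unlike the Bpif genes, Reg3g was lowest with amiodarone alone, and its vehicle and combination levels did not differ beyond counting error.

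Clca1 encodes a secreted protein of goblet cells that processes mucus, and it lies on chromosome 3 from 145004537 to 145032776. It had 3.53 FPKM after vehicle (178 reads), 8.72 FPKM after amiodarone (471 reads), 14.0 FPKM after dabigatran (716 reads) and 1.08 FPKM after both drugs (59 reads). Each drug alone thus went with a higher level than vehicle, while the library from the mouse given both had the lowest. All 3 steps in this order went beyond counting error, and the highest level was 13.0 times the lowest, the widest range of the 10 genes. Tff2 is a trefoil peptide secreted with mucus, on chromosome 17 from 31141062 to 31144282. Its levels were 34.6 FPKM after vehicle, 15.4 FPKM after amiodarone, 36.5 FPKM after dabigatran and 10.9 FPKM after the combination. The libraries without amiodarone did not differ beyond counting error for Tff2, and both libraries with amiodarone were lower.

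The gel-forming mucins Muc5ac and Muc5b are neighbours on chromosome 7, from 141788958 to 141819227 and from 141839059 to 141873089. Muc5b, the constitutive airway mucin, had 15.4 FPKM after vehicle, 13.1 FPKM after amiodarone, 15.7 FPKM after dabigatran and 9.67 FPKM after both drugs, from 2734 to 4159 reads. Muc5ac, the inducible airway mucin, had 0.61, 0.57, 0.65 and 0.41 FPKM in the same order of libraries, from 80 to 124 reads. The level of Muc5b was between 23.0 and 25.2 times that of Muc5ac in every library, so the mucins kept nearly the same proportion. Both were lowest with the combination. Within a library, the level of Clca1 over that of Muc5b went from 0.112 with the combination through 0.229 with vehicle and 0.666 with amiodarone to 0.893 with dabigatran. Clca1 therefore did not follow the mucins.

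Agr2 encodes a disulfide isomerase that mucins need for folding, on chromosome 12 from 35992925 to 36004081. It had 42 reads after vehicle, 35 after amiodarone, 43 after dabigatran and 15 after the combination, or 3.41, 2.66, 3.45 and 1.13 FPKM. The first 3 libraries did not differ beyond counting error, and the combination lay below them. Spdef, the transcription factor that drives goblet cell differentiation, lies on chromosome 17 from 27714446 to 27731003 and had 43, 59, 52 and 45 reads in the same order. Its levels of 1.34 to 1.78 FPKM did not differ between neighbouring libraries beyond counting error, and differences of this size were not detectable at this depth. Pigr, the receptor that carries polymeric IgA across the epithelium, lies on chromosome 1 from 130826684 to 130852249. It had 29.0 FPKM after vehicle, 38.6 FPKM after amiodarone, 39.2 FPKM after dabigatran and 40.7 FPKM after the combination. Pigr was lowest with vehicle, where the step up to amiodarone went beyond counting error, and neighbours in the order among the treated libraries did not differ beyond it.

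**Figure D1:**
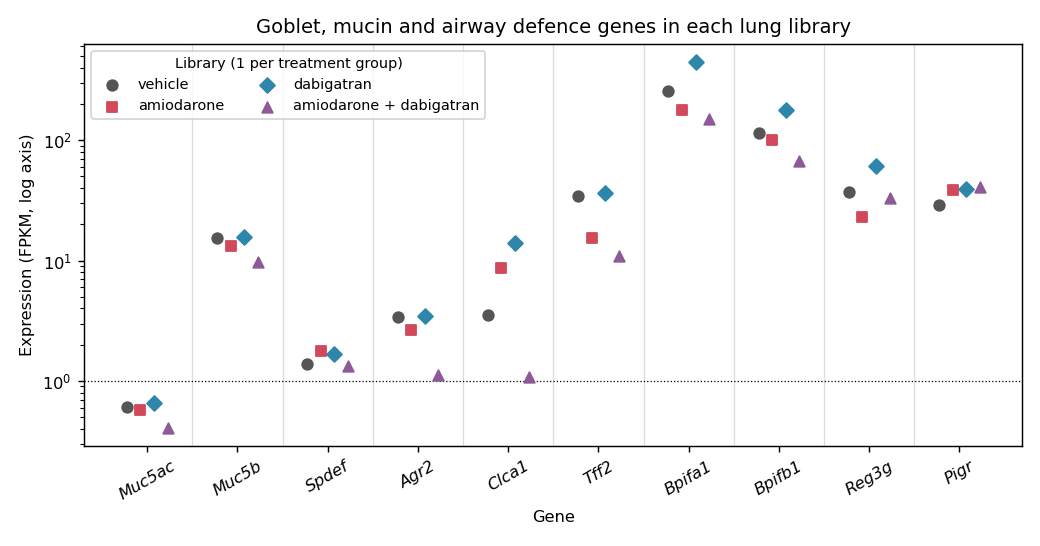
Expression of each of the 10 genes in FPKM on a log axis, with 1 point for each library and treatment group and a dotted line at 1 FPKM. The dabigatran library is highest for 8 genes and the combination library is lowest for 8 genes, with Spdef, Reg3g and Pigr as the exceptions to one or the other. Muc5ac, Muc5b, Agr2 and Tff2 with dabigatran lie within counting error of vehicle, as does Spdef with the combination.

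Across the 10 genes, 8 had their highest level in the dabigatran library, and 8 had their lowest in the combination library. Of the 13536 genes with at least 1 FPKM in any library, 27.1% were highest with dabigatran and 20.4% were lowest with the combination. The first of these shares includes the contrast by which the set was chosen. Muc5ac, Muc5b, Agr2, Clca1, Tff2, Bpifa1 and Bpifb1 met both descriptions. For Muc5ac, Muc5b, Agr2 and Tff2, however, the dabigatran and vehicle levels did not differ beyond counting error. Nor did the vehicle and combination levels of Spdef. Muc5ac is not among the 13536 genes, as it stayed below 1 FPKM in every library.

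With dabigatran alone against vehicle, the contrast behind the choice, all 10 genes were above vehicle, as were 50.1% of all genes tested, and 5 of them were higher beyond counting error against 15.2% of 13373 genes. None was lower beyond counting error, against 13.4%. The 5 were Clca1 at a ratio of 3.96 (3.36 to 4.70), Bpifa1 at 1.74 (1.68 to 1.80), Reg3g at 1.64 (1.46 to 1.84), Bpifb1 at 1.56 (1.49 to 1.63) and Pigr at 1.35 (1.27 to 1.43). Clca1 was the 1 gene past 2-fold on the log2(FPKM + 1) scale, against 0.0897% of all genes tested, and 0 genes of the set were 2-fold lower, against 0.0673%. Next in the set was Bpifa1, short of 2-fold at a log2 difference of 0.80. The remaining 5 genes, Muc5ac, Muc5b, Spdef, Agr2 and Tff2, had ratios from 1.01 to 1.19 with intervals that include 1. Of these, Muc5b, at 1.02 (0.974 to 1.06), and Tff2, at 1.05 (0.901 to 1.23), lay close to vehicle. The fewer reads of the others leave wider intervals, 0.819 to 1.39 for Muc5ac, 0.646 to 1.59 for Agr2 and 0.782 to 1.83 for Spdef.

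Dabigatran was also given on top of amiodarone, and this comparison uses neither the vehicle nor the dabigatran library. The genes and the comparisons were nevertheless chosen with earlier results of these data known, so the counts are a description. Here 7 of the 10 genes were lower with both drugs than with amiodarone alone beyond counting error, against 15.0% of 13261 genes, and 2 were higher, against 21.2%. The 9 genes that reached 1 FPKM in either library hold 6 of the 7, and Muc5ac is the other. Clca1 was at a ratio of 0.124 (0.0928 to 0.163), a log2(FPKM + 1) difference of -2.22, the lowest of all genes tested. It was the 1 gene of the set past 2-fold on that scale, where 0.287% of genes were 2-fold lower, and 0 genes of the set were 2-fold higher, against 0.189%. Agr2 had a ratio of 0.425 (0.216 to 0.798), from 15 against 35 reads. Bpifb1 was at 0.666 (0.629 to 0.705), Tff2 at 0.708 (0.546 to 0.915), Muc5ac at 0.719 (0.531 to 0.971), Muc5b at 0.738 (0.702 to 0.776) and Bpifa1 at 0.841 (0.801 to 0.884). Reg3g was higher, at 1.46 (1.26 to 1.70), as was Pigr by a small margin at 1.06 (1.0 to 1.11), which turned to a log2 difference of -0.13 when the libraries were rescaled by club and ciliated cell genes as described further on. The median log2 difference over the 10 genes was -0.33, beside 0.03 over all genes tested.

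Set side by side, 3 genes were above vehicle with dabigatran and below amiodarone with the combination, both beyond counting error. They were Clca1, Bpifa1 and Bpifb1, and 4.66% of the 13098 genes tested in both comparisons did so. Reg3g and Pigr were higher in both comparisons beyond counting error, as were 3.08% of genes. Both patterns include the contrast of dabigatran with vehicle, by which the set was chosen, so these shares are a description only. 

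**Figure D2:**
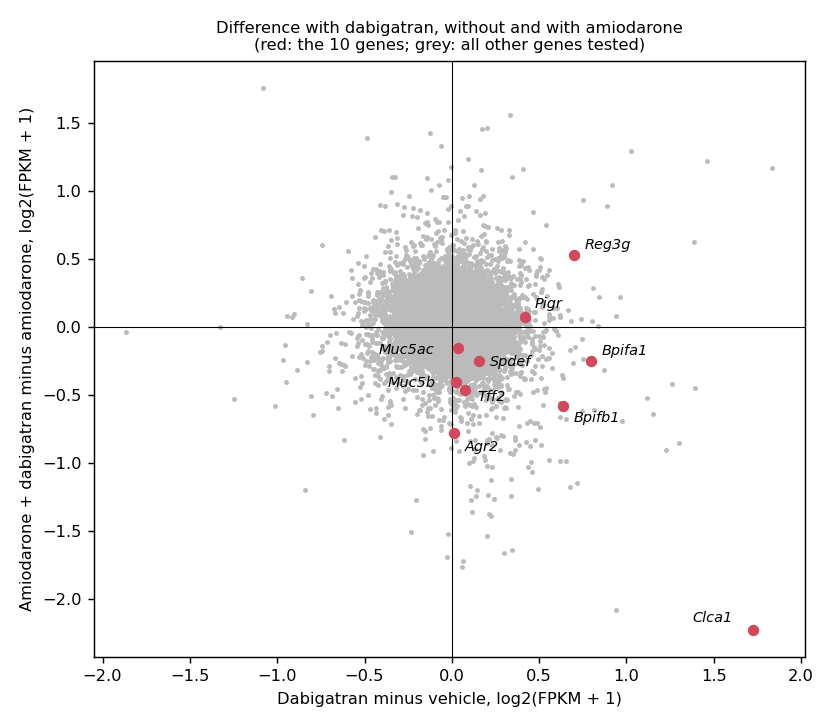
Difference on the log2(FPKM + 1) scale between dabigatran and vehicle (horizontal) and between amiodarone + dabigatran and amiodarone (vertical), from 4 separate libraries, with the 10 genes in red and all other genes with at least 1 FPKM in both comparisons in grey. Clca1 lies at 1.73 and -2.22, far from the other genes, Reg3g is above 0 on both axes, and Muc5b, Tff2 and Agr2 lie near 0 on the horizontal axis and below 0 on the vertical one.

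With amiodarone alone against vehicle, genes of the set lay on both sides. Clca1 was higher at a ratio of 2.47 (2.07 to 2.95) and Pigr at 1.33 (1.25 to 1.41), the 2 of 10 genes higher beyond counting error, against 19.6% of 13402 genes. Lower beyond counting error were 5 genes, against 30.1%. They were Tff2 at 0.444 (0.363 to 0.542), Reg3g at 0.611 (0.527 to 0.707), Bpifa1 at 0.698 (0.668 to 0.729), Muc5b at 0.851 (0.813 to 0.890) and Bpifb1 at 0.874 (0.831 to 0.918), of which Bpifa1, Muc5b and Bpifb1 lay above vehicle once rescaled by club and ciliated cell genes. Past 2-fold on the log2(FPKM + 1) scale were Clca1 upwards, against 1.87% of genes, and Tff2 downwards, against 0.545%, the latter not past 2-fold after that rescaling. The median over the 10 genes was -0.21, beside -0.05 over all genes. This comparison shares the vehicle library with that of dabigatran alone.

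The last comparison sets the combination against dabigatran alone. Of the 10 genes 8 were lower beyond counting error, against 23.5% of 13379 genes, and none was higher, against 19.5%. At least 2-fold lower were 5 genes, Clca1, Tff2, Bpifa1, Bpifb1 and Agr2, against 0.434% of genes, and 0 were 2-fold higher, against 1.15%. Agr2 was not past 2-fold when reads were scaled to the library total, at -0.93, or after rescaling by club and ciliated cell genes, at -0.91. Clca1 had a ratio of 0.0772 (0.0582 to 0.101), Tff2 of 0.298 (0.238 to 0.372), Agr2 of 0.328 (0.169 to 0.601), Bpifa1 of 0.337 (0.323 to 0.352) and Bpifb1 of 0.374 (0.355 to 0.394). Reg3g was at 0.545 (0.484 to 0.613), Muc5b at 0.617 (0.588 to 0.648) and Muc5ac at 0.631 (0.470 to 0.842). Spdef, at 0.807, and Pigr, at 1.04, lay within counting error. The median was -0.96, beside -0.01 over all genes. The dabigatran library, which was highest for 8 of the genes, is the reference here, so these ratios also carry the contrast by which the set was chosen. Tff2 was the gene lower at least 2-fold with amiodarone in both pairs of libraries, which do not overlap, whereas Clca1 was higher with amiodarone in the absence of dabigatran and lower in its presence.

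**Figure D3:**
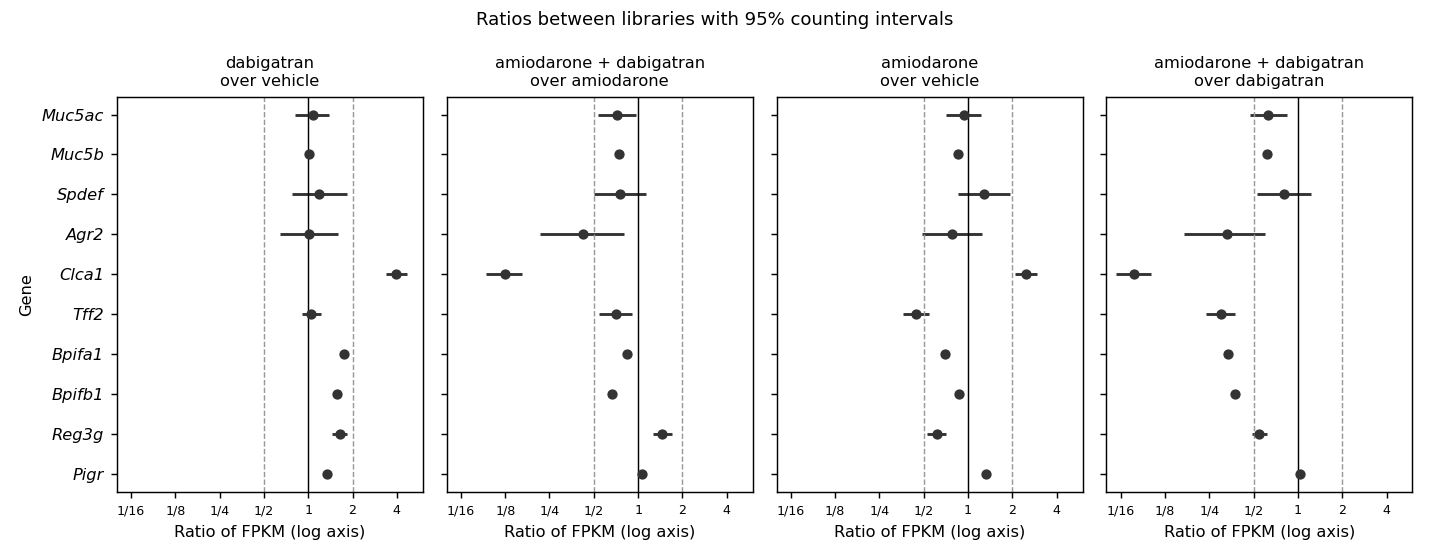
Ratio of FPKM between libraries on a log axis for each of the 10 genes in 4 comparisons, with bars for the 95% counting interval, a solid line at 1 and dashed lines at 2-fold. Clca1 is right of 1 with either drug alone and left of 1 with the combination in both comparisons, and Tff2 is left of 1 in every comparison but that of dabigatran with vehicle.

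The libraries also differed in other airway genes. Of the 8 club cell genes, all were lower with amiodarone than with vehicle, at a median ratio of 0.632, and their median ratios to vehicle were 0.933 with dabigatran and 0.773 with the combination. The 10 ciliated cell genes had median ratios of 0.703, 0.884 and 0.786 in that order. With the combination against amiodarone, club cell genes had a median ratio of 1.15 and ciliated cell genes one of 1.14, both above 1, where 7 of the 10 genes described here were lower. Rescaling each library by these 18 genes took the log2 difference of amiodarone against vehicle from -0.22 to 0.33 for Muc5b, from -0.52 to 0.06 for Bpifa1 and from -0.19 to 0.38 for Bpifb1, so these genes then lay above vehicle. Tff2 kept its direction at -0.56 and was no longer past 2-fold, and Clca1 was at 1.59. For the combination against amiodarone, the same rescaling gave -2.45 for Clca1, -0.66 for Tff2, -0.60 for Muc5b and -0.78 for Bpifb1. Neutrophil genes had a summed level of 91.2 FPKM after vehicle, 596 after amiodarone, 68.1 after dabigatran and 431 after the combination, and macrophage genes of 171, 874, 197 and 1111 FPKM. The part of these cells in the results was not tested.

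**Figure D4:**
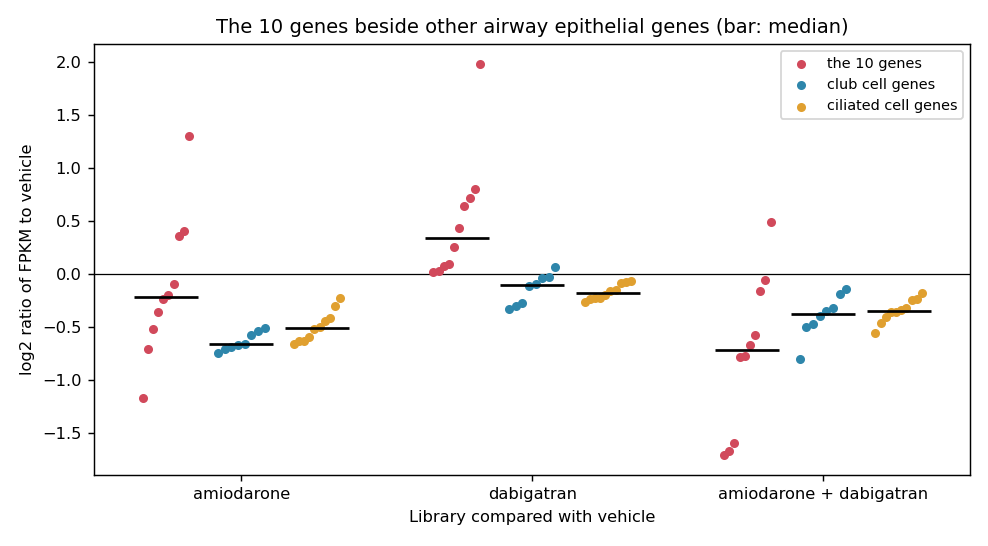
Log2 ratio of FPKM to the vehicle library for the 10 genes, 8 club cell genes and 10 ciliated cell genes in the other 3 libraries, with a point for each gene and a bar at the median. The median of the 10 genes is 0.34 with dabigatran, where club and ciliated cell genes are at -0.10 and -0.18, and it is -0.72 with the combination, where they are at -0.37 and -0.35.

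The genes nearest in pattern to Clca1 were found by the distance between log2(FPKM + 1) differences from vehicle in the 3 treated libraries, among 13535 other genes with at least 1 FPKM in any library. They were Gm14434 (distance 1.22), Egr3 (1.38), Gm9780 (1.5), LOC108167857 (1.5) and Cyp2e1 (1.54). Egr3, an immediate early transcription factor, had 2.69, 2.48, 7.20 and 1.23 FPKM with vehicle, amiodarone, dabigatran and the combination, and Cyp2e1, a cytochrome P450, had 11, 9.25, 22.6 and 5.34 FPKM. Gm14434 had 178, 271, 421 and 0 reads. The closest of the set to Clca1 was Bpifb1, at rank 15, and Tff2 was at rank 13114. The genes nearest to Bpifa1 were 2210418O10Rik (0.32), Cyp4a12b (0.32), Bpifb1 (0.36), Cyp2e1 (0.38) and Glp1r (0.41), with Reg3g at rank 33. Bpifa1 thus had its chromosomal neighbour as the third nearest of all genes. No gene lay as close to Clca1 as these 5 did to Bpifa1. Egr3 and Cyp2e1 were below vehicle with amiodarone, where Clca1 was above it. A distance over 3 differences that share the vehicle library is a description and holds no error.

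Further genes of mucus and defence came from lists chosen by name. Among the 11 tested genes of mucous secretory cells, 2 were higher and 3 lower beyond counting error with dabigatran, beside 15.2% and 13.4% of all genes. None reached 2-fold on the log2(FPKM + 1) scale in any of the 4 comparisons. Fcgbp, a mucus protein, had 1.29, 1.42, 2.07 and 1.61 FPKM with vehicle, amiodarone, dabigatran and the combination. Creb3l1, a transcription factor of secretory cells, had 24.0, 16.6, 25.4 and 21.2 FPKM across these libraries, and Foxa2, an airway transcription factor, had 25.6, 17.9, 27.2 and 21.7 FPKM. Both were lowest with amiodarone alone, where the mucins, Agr2 and Tff2 were lowest with the combination. Slc26a4, an anion exchanger of the airway surface, had 1.13, 2.89, 0.670 and 1.61 FPKM, and its ratio of amiodarone to vehicle was 2.56 (1.91 to 3.47).

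Of 8 other mucins 4 reached 1 FPKM in at least 1 library, and none differed 2-fold on the log2(FPKM + 1) scale. The membrane mucin Muc1 was the most abundant, at 212 FPKM after vehicle, 254 after amiodarone, 189 after dabigatran and 248 after the combination, and was thus highest with amiodarone. Among the other CLCA genes only Clca3a1, which is known from endothelium, reached 1 FPKM, with 1.12, 3.91, 0.920 and 2.19 FPKM. It was higher with amiodarone at 3.49 (2.68 to 4.60), like Clca1, and was not higher with dabigatran, at 0.821 (0.572 to 1.18). Of the other BPIF genes 2 reached 1 FPKM, Lbp and Bpifb5, and neither differed 2-fold on that scale. The 3 other Reg genes in the table had at most 2 reads in any library.

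Among 10 tested genes of secreted airway defence, 8 were higher and 2 lower with amiodarone beyond counting error, beside 19.6% and 30.1% of all genes. The 8 were Lyz1, Lyz2, Ltf, Lcn2, Slpi, Sftpd, Sftpa1 and Cxcl17. The 2 lower were Wfdc2 at 0.878 (0.858 to 0.897) and Nos2 at 0.625 (0.459 to 0.846). The cells that gave these reads were not resolved in whole lung, so the count is not one of airway cells. With the combination against amiodarone 1 was higher and 9 were lower, beside 21.2% and 15.0%. Ltf encodes lactoferrin, an iron-binding antimicrobial protein of glands and neutrophils. It had 24.4 FPKM after vehicle, 28.2 FPKM after amiodarone, 33.2 FPKM after dabigatran and 15.2 FPKM after the combination, so its highest and lowest libraries were those of the Bpif genes and Clca1. Its ratio of the combination to dabigatran was 0.459 (0.421 to 0.50). Slpi, an inhibitor of leukocyte proteases, had 36.3, 66.3, 26.7 and 57.2 FPKM, with the libraries given amiodarone on top. Lcn2, which binds bacterial siderophores and is also made by neutrophils, had 157, 921, 155 and 320 FPKM in the same order of libraries. It was the 1 gene of this list at least 2-fold lower with the combination than with amiodarone, at 0.348 (0.336 to 0.359). With the combination Lcn2 stayed above dabigatran, at 2.07 (1.97 to 2.18).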

How the data were processed

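Total RNA from left lung tissue was poly(A)-selected and sequenced on DNBseq by the authors, with 1 library per group. The authors aligned reads by HISAT 2.0.4 (genome build GRCm38.p6) and by Bowtie2 2.2.5 (gene sequences), and RSEM 1.2.8 gave the deposited estimated counts and normalized values. The deposited values are read as FPKM, because reads per unit of value differ between libraries by the ratio of total reads (1.07 for amiodarone to vehicle in both). The 8 further columns deposited are means of 2 libraries of different groups and were not used.

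Samples were grouped by their treatment labels. Intervals used the estimated counts rounded to whole numbers and were rescaled to FPKM. They cover counting error only, and a count of 0 allows up to 3 reads. Genes reaching 1 FPKM in one library of a pair or the other were compared at 2-fold on the log2(FPKM + 1) scale, which understates changes of low genes. The study made no statistical test of these data, and none is made here. The 10 genes, the 19 gene lists and the comparisons were chosen with earlier results of these data known. Named genes are the 10 members, list genes with 2-fold differences or high levels, and the 5 genes nearest to Clca1 and to Bpifa1. Others, such as Fcgbp, Creb3l1, Foxa2, Slc26a4, Ltf and those of few reads, were picked with their values already known. The TATAAA search was added after seeing the sequences. All 10 genes were found in RefSeq for GRCm38.p6. Python 3.11.15, scipy 1.17.1 and pandas 2.3.3 were used, and the procedure was tested on simulated data. Alternatives were a pseudocount of 0.1, a threshold of 1.5-fold, no filter or 5 FPKM, and rescaling by the median ratio over genes, by total reads, or by club and ciliated cell genes.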

Additional observations from a re-analysis of the deposited data

Results flagged for a closer look

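Clca1, Bpifa1 and Bpifb1 were higher with dabigatran than with vehicle and lower with the combination than with amiodarone, in each case beyond counting error. The log2 ratio of the combination to amiodarone minus that of dabigatran to vehicle was -5.00 for Clca1, -1.05 for Bpifa1 and -1.22 for Bpifb1. With 1 library per group the difference was not tested. Both the pattern and the difference include the contrast of dabigatran with vehicle, by which the set was chosen. Among the genes tested in both comparisons, 4.66% showed the same directions beyond counting error. For Clca1 both differences rest on few reads beside those of the Bpif genes, between 59 and 716 per library.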

How the results depend on the processing

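No paired analysis was possible because each group has 1 library, and for the same reason no library could be left out. Under a pseudocount of 0.1, 2 of the 10 genes instead of 1 were at least 2-fold lower with the combination than with amiodarone, Agr2 beside Clca1, and the share of all genes went from 0.287% to 0.588%. At a threshold of 1.5-fold, 4 genes instead of 1 were higher with dabigatran than with vehicle (0.449% of all genes), 2 instead of 1 were lower with the combination than with amiodarone (1.22%), and 2 instead of 1 were lower with amiodarone than with vehicle (3.93%). With the combination against dabigatran, 5 genes were at least 2-fold lower, 7 at 1.5-fold (2.04%), and 4, without Agr2, under the 5 FPKM filter, total reads or rescaling by club and ciliated cell genes. Rescaling by club and ciliated cell genes left 0 of the 10 genes at least 2-fold lower with amiodarone, since Tff2 was then at -0.56. Of 40 single values, that rescaling kept the sign of 34, and the pseudocount of 0.1, the median ratio over genes and total reads each kept the sign of all 40. Depth limits Spdef, Agr2 and Muc5ac most, which had at most 124 reads in any library.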

Other observations

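Il13, a cytokine known to drive goblet cell genes, was scarcely detected. It had 0 reads with vehicle and with dabigatran, 3 with amiodarone and 1 with the combination. Il5, another type 2 cytokine, had between 3 and 6. Other cytokines of the type 2 response were detected. Il33 had 28.2 FPKM after vehicle, 39.6 after amiodarone, 23.8 after dabigatran and 33.5 after the combination. Tslp had 2.65, 2.92, 1.57 and 2.35 FPKM in that order. Of 22 genes of the type 2 response 12 reached 1 FPKM in at least 1 library. None differed 2-fold on the log2(FPKM + 1) scale in the 4 comparisons, which understates changes of low genes. As ratios, Alox15 was at 2.40 (1.49 to 3.93) with dabigatran over vehicle, and Arg1 at 2.57 (1.47 to 4.71) with the combination over amiodarone. Chil4, below 1 FPKM throughout, had 1, 22, 12 and 9 reads in the same order of libraries. With dabigatran 3 of 12 tested genes were higher and 3 lower beyond counting error (15.2% and 13.4% of all genes). With the combination against amiodarone 3 of 11 were higher and 4 lower (21.2% and 15.0%). The receptor chain Il4ra had 36.0 FPKM after vehicle, 62.9 after amiodarone, 38.4 after dabigatran and 49.8 after the combination, and Siglecf, of eosinophils and alveolar macrophages, had 2.01, 2.96, 2.44 and 5.63 FPKM, with a ratio of the combination to dabigatran of 2.31 (1.84 to 2.92). Of 10 genes of the IL-17 and IL-22 response 5 reached 1 FPKM, and none of these differed 2-fold on that scale.

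Plasma cell genes provide the IgA that Pigr carries. Jchain, the joining chain of polymeric IgA, had 6.89 FPKM after vehicle, 6.02 after amiodarone, 9.85 after dabigatran and 5.52 after the combination. Its level was highest with dabigatran and lowest with the combination, an order that Pigr did not show. The combination and amiodarone levels of Jchain did not differ beyond counting error, at a ratio of 0.917 (0.758 to 1.11). Mzb1 had 7.50, 3.32, 8.11 and 4.16 FPKM, lower in both libraries with amiodarone. The 7 general epithelial genes summed to between 550 and 633 FPKM. Of the squamous epithelial list Sbsn alone was above 1 FPKM, from 5.34 to 8.66 FPKM, and of the stomach list Pgc alone, at 1.59 FPKM with vehicle and 0.400 with the combination.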
